A study of Mus musculus with 24 samples.

Results

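The effect of diethylhexylphthalate (DEHP) on the liver was not the same at 8 h as at 2 h for 76 of the 18194 genes measured. These genes are described here, with the question of which of the 4 groups of livers moved. The quantity tested was an interaction. It is the log2 signal of DEHP minus corn oil livers at 8 h, minus the same difference at 2 h, for the probe set of each gene with the highest mean signal over 24 arrays. The difference was higher at 8 h for 26 genes, which was 0.143 percent of the genes tested, and lower for 50 genes (0.275 percent), by limma with Benjamini-Hochberg adjusted p-values under 0.05. At an unadjusted p under 0.05 the count was 1833 genes, 548 higher and 1285 lower.

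Messenger RNA was measured in liver of male B6C3F1 mice, with no genetic alteration given in the labels. The mice were 7 to 10 weeks old on arrival. The 12 arrays of the comparison held 3 of each of 4 groups: DEHP at 8 h, corn oil at 8 h, DEHP at 2 h and corn oil at 2 h. DEHP was given by oral gavage at 1150 mg/kg/day in 10 ml/kg, and control mice received the same volume of the corn oil vehicle, labelled 0 mg/kg, by the same route. The design describes dosing each 24 h over 3 days and 6 mice, with no word on how those mice relate to the arrays. The other 12 arrays, 3 per group at 24 and 72 h, entered the model for the estimate of the spread. Whether each array is a mouse of its own is not stated, and p-values therefore measure the spread between these samples, which may be technical. Time since gavage and hour of the day cannot be told apart in a contrast of 8 with 2 h. Changes are log2 differences ± SE from the fit, n = 3 arrays in each group.

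DEHP is a plasticiser and a peroxisome proliferator. Its metabolite activates the nuclear receptor PPARα, which switches on genes of fatty acid oxidation in rodent liver, and phthalates can also activate the constitutive androstane receptor CAR, whose best known target in mouse liver is Cyp2b10. Corn oil is a fat, and many liver genes are known to follow feeding and the clock.

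All 9 measured hepatocyte markers were among the brightest genes, with albumin between 14.34 and 14.50 on the 12 arrays. Within each group, r across probe sets was 0.989 to 0.995. Loss of the 5' end of Actb, which accompanies RNA breakdown, was widest in corn oil 8 h replicate 2, whose 3' probe set stood 1.46 log2 units above its 5' one, against 0.52 to 0.82 on the other 11 arrays. That array also had the highest 18S control signal of the 12 (11.70, the next being 8.49). Its Gapdh 3' minus 5' difference was the widest as well (0.63, the next being 0.36). It had the lowest mean of the macrophage (-0.63) and endothelial (-0.54) markers, relative to the 12 arrays. In bulk liver, fewer cells of a type, less RNA per cell and, on this array, RNA breakdown cannot be told apart. Exocrine pancreas markers were highest in DEHP 2 h replicate 1 (2.93 above the mean of the 12 arrays) and corn oil 2 h replicate 2 (1.60). They were also raised in corn oil 2 h replicate 1 (0.69), while the other 9 arrays lay between -0.75 and 0.12. No member of the 10 cell type marker lists was called by limma for the change of the effect; at an unadjusted p under 0.05, 2 stellate markers and 1 adipocyte marker were higher and 1 hepatocyte marker was lower. Stellate markers had a median change of 0.26, with 11 of 12 positive, and their mean was -0.18 to 0.07 on DEHP 2 h arrays, against 0.14 to 0.26 on corn oil 2 h arrays, with overlap at 8 h. Endothelial markers did not overlap at 2 h either, with -0.05 to 0.11 in DEHP livers and 0.12 to 0.23 in corn oil livers. Neutrophil markers were higher in DEHP livers at 2 h, with 0.004 to 0.148, against -0.045 to -0.005 in corn oil livers. The mean of 5 adipocyte markers was 0.14 to 0.42 on DEHP 8 h arrays, against -0.15 to 0.03 on corn oil 8 h arrays. However, 3 of the 5 were among the dimmest 40 percent of genes. Their median change was 0.14, with 3 positive and 2 negative. Hepatocyte markers were slightly lower in DEHP livers at 8 h, with -0.056 to -0.035, against -0.028 to 0.005 in corn oil livers. The part of these marker lists in the results was not tested.

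The number of genes called depended on single arrays. It was lower without DEHP 2 h replicate 1 (13 higher and 22 lower) or 3 (13 and 24), or DEHP 8 h replicate 1 (9 and 19) or 3 (16 and 21). The same held without corn oil 2 h replicate 1 (10 and 21) or 3 (18 and 35), or corn oil 8 h replicate 1 (15 and 38) or 2 (11 and 31). It was larger without DEHP 2 h replicate 2 (34 and 77), DEHP 8 h replicate 2 (32 and 149) or corn oil 8 h replicate 3 (39 and 52). Without corn oil 2 h replicate 2, 20 genes were higher and 57 lower. Without the 2 arrays highest in pancreas markers, 11 genes were higher and 25 lower. All 76 changes had the same sign in each of the 12 fits that left out 1 array, and 26 of the 76 were called in all 12.

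Other settings also ended calls among 35 called genes chosen for naming. Without the 2 arrays highest in pancreas markers, 18 were no longer called: Adh4, Atp10d, Cdkn1a, Cyp2c55, Cyp2u1, Enho, Entpd5, Gstt3, Hspa4l, Lpin2, Me1, Mpzl2, Nid2, Papss2, Saa4, Stip1, Tmem135 and Upp2 (limma, adjusted p = 0.0524 to 0.2). With the Actb 3' to 5' difference in the model, 15 were not called, all among these 18 except Tfrc. Fitting the 12 arrays at 8 and 2 h alone ended 12 calls, those of Adh4, Atp10d, Cyp2u1, Enho, Hspa4l, Ifi47, Mpzl2, Saa4, Stip1, Tat, Tfrc and Upp2. The mean of all probe sets ended 7, those of Cyp2u1, Enho, Hspa8, Lpin2, Pnpla2, Saa4 and Tmem135.

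Both DEHP and corn oil livers moved, in about equal numbers of genes. Of the 76 genes, 36 differed between 8 and 2 h by a call in DEHP livers alone, 31 in corn oil livers alone and 9 in both. Here alone means that the shift of the other livers was not called, and not that it was absent. By sign, DEHP and corn oil livers moved opposite ways for 15 of the 26 genes with a higher effect. The same held for 43 of the 50 genes with a lower effect. Over all genes, 4 percent differed between 8 and 2 h in DEHP livers (372 higher and 356 lower at 8 h) and 4.06 percent in corn oil livers (539 higher and 199 lower). These contrasts share arrays with the interaction, so the counts describe the called genes and are no further test. Of the 9 genes that moved in both, 5 went opposite ways: Apol7a, Mfhas1, Gpr155, Hspa8 and Ccpg1os. The other 4, Cdkn1a, Nid2, Aspa and Pnpla2, went the same way by unequal amounts. Ccpg1os and Aspa are named after their values were seen.

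**Figure D1:**
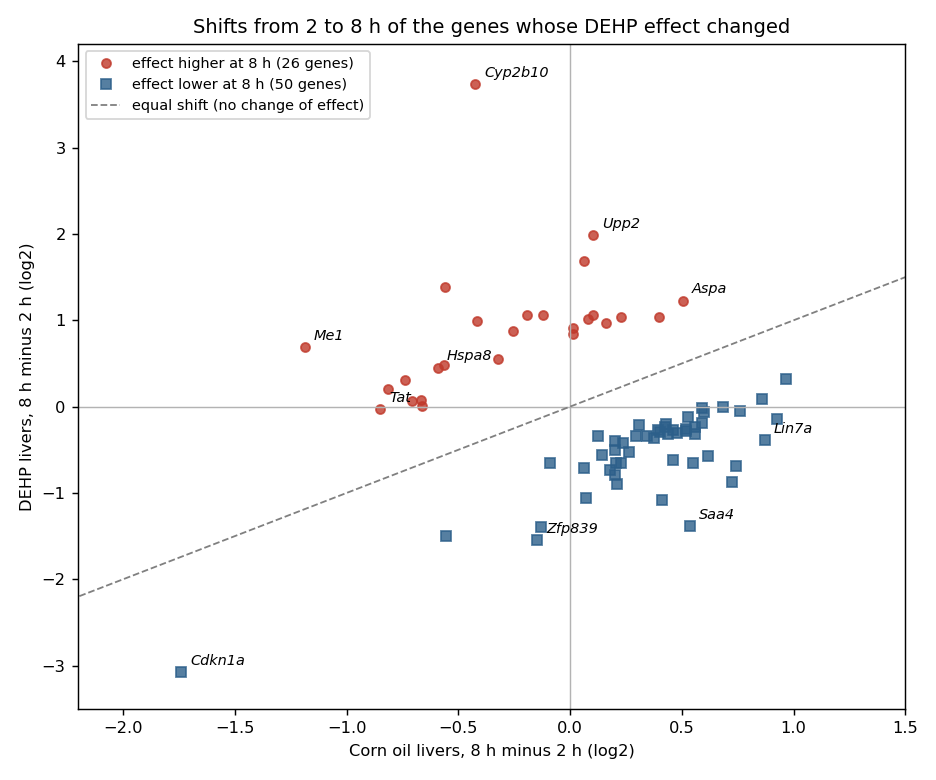
Shift from 2 to 8 h in DEHP livers (vertical axis) against the shift in corn oil livers (horizontal axis), both as log2 differences of group means, for the 76 genes whose DEHP effect changed. Circles are the 26 genes with a higher effect at 8 h and squares the 50 with a lower one; points on the dashed line would have an equal shift in both, and Cyp2b10 lies farthest above it.

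For most of the 76 genes an effect of DEHP was called at 8 h and not at 2 h. The difference between DEHP and corn oil livers was called at 8 h alone for 65 of the 76 genes, at 2 h alone for 6, at both times for 1 and at neither for 4. The background was 4.13 percent of all genes at 8 h and 0.83 percent at 2 h. The DEHP 8 h arrays did not overlap the corn oil 8 h arrays for 73 of the 76 genes, against 18.6 percent of all genes. The 76 genes were chosen by a test on these same arrays, which favours a difference at 8 or 2 h. The counts therefore describe the called genes and are no further test. Measured as distance from the mean of the other 3 groups, the outlying group was DEHP at 8 h for 35 genes, corn oil at 8 h for 29, DEHP at 2 h for 7 and corn oil at 2 h for 5.

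Both directions held genes that moved in DEHP livers and genes that moved in corn oil livers. Among the 26 genes with a higher effect at 8 h, 15 moved in DEHP livers alone, 8 in corn oil livers alone and 3 in both. Their median shift from 2 to 8 h was 0.94 in DEHP livers and -0.29 in corn oil livers, on the log2 scale. Among the 50 genes with a lower effect, 21 moved in DEHP livers alone, 23 in corn oil livers alone and 6 in both, with median shifts of -0.38 in DEHP livers and 0.42 in corn oil livers. Over all genes tested the medians were -0.002 in DEHP livers and 0.007 in corn oil livers.

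Cyp2b10, a drug-metabolising cytochrome P450 and the standard target of CAR, had the largest change. Its log2 signal was 12.07, 12.12 and 10.86 on the DEHP 8 h arrays, against 6.59, 6.64 and 6.44 on the corn oil 8 h arrays. It was 7.67, 7.78 and 8.39 on the DEHP 2 h arrays, against 6.74, 6.70 and 7.50 on the corn oil 2 h arrays. The shift from 2 to 8 h was called in DEHP livers alone, where it was 3.73 ± 0.29. In corn oil livers it was -0.43 ± 0.29, without a call, although the corn oil arrays of the 2 times did not overlap. The DEHP effect was 5.13 at 8 h and 0.97 at 2 h, a change of 4.16 ± 0.41 (limma, adjusted p = 1.88e-05). The corn oil 8 h signals lay near the median of whole arrays, 6.46 to 6.55, so whether they were above background is not known. Its 3 probe sets gave changes of 3.40 to 4.16, and those whose design may also bind related transcripts gave 3.88 and 4.16. The receptor gene Nr1i3, which encodes CAR, was not called (-0.13 ± 0.24, adjusted p = 0.94).

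Promoter sequences are shown for 3 of the called genes whose livers moved in different ways: Cyp2b10 for DEHP livers, and the co-chaperone gene Stip1 and the tyrosine aminotransferase gene Tat for corn oil livers. Each window runs 250 bases before to 50 after a RefSeq gene start on GRCm38.p6, on the strand of the gene, at chr7:25897408-25897707 (+) for Cyp2b10, chr19:7039977-7040276 (-) for Stip1 and chr8:109990186-109990485 (+) for Tat. Capitals mark matches on either strand to the motifs CACGTG (E-box), GAANNTTC or TTCNNGAA (a heat shock dyad), CCAAT (the CCAAT box) and AGGTCA (bound by nuclear receptors).
Cyp2b10: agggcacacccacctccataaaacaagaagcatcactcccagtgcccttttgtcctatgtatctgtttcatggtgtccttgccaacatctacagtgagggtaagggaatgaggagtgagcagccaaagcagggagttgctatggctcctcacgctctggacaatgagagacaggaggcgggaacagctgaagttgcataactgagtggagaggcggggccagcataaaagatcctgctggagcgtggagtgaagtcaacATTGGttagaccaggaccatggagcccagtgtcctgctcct
Stip1: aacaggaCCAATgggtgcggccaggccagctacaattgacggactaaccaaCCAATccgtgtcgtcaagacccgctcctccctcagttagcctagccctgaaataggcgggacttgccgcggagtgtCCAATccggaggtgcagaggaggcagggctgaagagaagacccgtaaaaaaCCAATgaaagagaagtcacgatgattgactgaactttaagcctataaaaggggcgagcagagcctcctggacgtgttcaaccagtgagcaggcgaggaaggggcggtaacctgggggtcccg
Tat: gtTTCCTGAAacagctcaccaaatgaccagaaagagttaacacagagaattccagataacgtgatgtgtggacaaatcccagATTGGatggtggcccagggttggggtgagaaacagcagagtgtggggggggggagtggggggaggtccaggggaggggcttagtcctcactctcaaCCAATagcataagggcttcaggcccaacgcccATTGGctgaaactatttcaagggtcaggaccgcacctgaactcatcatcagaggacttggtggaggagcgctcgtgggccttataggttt
The windows of Cyp2b10, Stip1 and Tat held 1, 4 and 3 CCAAT boxes, and that of Tat also 1 heat shock dyad. Windows were found for 58 of the 76 called genes and for 14453 of all genes tested. A CCAAT box stood in those of 32 of the 58 (55.2 percent), against 42 percent of all genes with a window. It was in 16 of 21 windows of genes with a higher effect (76.2 percent), which include all 3 printed here, and in 16 of 37 of genes with a lower effect (43.2 percent). The other motifs stood in 8.62 percent (E-box, 10.2 percent of all), 17.2 percent (heat shock dyad, 15 percent) and 15.5 percent (AGGTCA, 16.5 percent). Among 18 heat shock genes with a window, described further on, 11 held the dyad. A match is only a match of letters, and nothing was tested here.

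For Cyp2c55, Gstt3 and Papss2 the shift from 2 to 8 h was called in DEHP livers and not in corn oil livers. The corn oil arrays of the 2 times nevertheless did not overlap for Cyp2c55 (shift -0.56) or Gstt3 (-0.41). Cyp2c55, another cytochrome P450, had 9.58, 9.36 and 9.21 on the DEHP 8 h arrays, against 7.33, 7.77 and 7.94 on the corn oil 8 h arrays, and the 2 h groups overlapped. Its effect rose by 1.94 ± 0.41 (limma, adjusted p = 0.0328). Gstt3, a glutathione transferase, had 9.05, 9.27 and 8.94 on DEHP 8 h arrays, against 8.32, 8.09 and 8.33 on corn oil 8 h arrays. At 2 h the order was the opposite, with 8.12, 7.94 and 8.21 on DEHP arrays, against 8.72, 8.64 and 8.63 on corn oil arrays. The change of Gstt3 was 1.41 ± 0.27 (adjusted p = 0.0173). Papss2, which makes the activated sulfate used in conjugation, changed by 1.18 ± 0.26 (adjusted p = 0.0414). The Cyp2c55 call held only without DEHP 2 h replicate 2, corn oil 2 h replicate 2 or 3, DEHP 8 h replicate 2 or corn oil 8 h replicate 3 (1.73 to 2.16 across all 12 omissions of an array). The Gstt3 call was lost without corn oil 2 h replicate 1 (1.38), DEHP 8 h replicate 1 (1.43) or corn oil 8 h replicate 2 (1.33). That of Papss2 held only without DEHP 2 h replicate 2 or corn oil 8 h replicate 3 (1.00 to 1.35). Of 28 measured genes of CAR and PXR drug metabolism, 2 were called higher, Cyp2b10 and Cyp2c55, and none lower; at an unadjusted p under 0.05, 9 were higher and 1 was lower. Among all 18194 genes tested, 548 were higher and 1285 lower at that p. The median change of the 28 genes was 0.28, against -0.006 over all genes.

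Srxn1, Entpd5 and Clstn3 kept their call in every fit that left out 1 array. Srxn1, sulfiredoxin, which repairs oxidised peroxiredoxins, had 9.33, 9.27 and 9.45 on DEHP 8 h arrays, against 8.37, 7.91 and 8.39 on corn oil 8 h arrays. All 6 of the 2 h arrays lay between 8.38 and 8.54, so the DEHP 8 h livers lay above all other arrays. The corn oil 8 h arrays lay below the corn oil 2 h arrays, with a shift of -0.25 that was not called. The change was 1.13 ± 0.19 (limma, adjusted p = 0.00681), although 1 of 4 probe sets gave -0.02. Clstn3, a calsyntenin, had 8.79, 8.90 and 8.86 on DEHP 8 h arrays, against 7.99, 8.26 and 8.14 on corn oil 8 h arrays, with 7.86, 8.00 and 7.96 on DEHP 2 h arrays, against 7.94, 8.17 and 8.24 on corn oil 2 h arrays. It changed by 0.90 ± 0.13 (adjusted p = 0.00185). Entpd5, an endoplasmic reticulum nucleotidase, averaged 11.84 ± 0.08 in DEHP livers at 8 h, against 10.82 ± 0.12 in corn oil livers (SD, n = 3 each). At 2 h the means of Entpd5 were 10.82 ± 0.03 in DEHP livers and 10.74 ± 0.13 in corn oil livers. Its effect rose by 0.94 ± 0.17 (adjusted p = 0.0132), though without the 2 arrays highest in pancreas markers the change was 0.88 and not called (adjusted p = 0.0787). Of its 6 probe sets 1, the dimmest, gave -0.11. Of 20 antioxidant genes, only Srxn1 was called and the median change was -0.09.

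Pnpla2, adipose triglyceride lipase, which starts the breakdown of stored fat, rose with time in both groups and more in DEHP livers. It had 10.47, 10.51 and 10.40 on DEHP 8 h arrays, against 9.64, 9.67 and 9.70 on corn oil 8 h arrays. The 2 h values were 9.37, 9.47 and 9.43 on DEHP arrays, against 9.29, 9.28 and 9.24 on corn oil arrays. The shift from 2 to 8 h was 1.04 ± 0.07 in DEHP livers and 0.40 ± 0.07 in corn oil livers. The arrays of the 4 groups did not overlap. The mean of the 5 adipocyte markers, 3 of them dim, was also higher in DEHP than in corn oil livers at 8 h. Their part here was not tested. The change of the effect was 0.64 ± 0.10 (limma, adjusted p = 0.00346) and kept its call whichever of the 12 arrays was left out. With the mean of all its probe sets it was 0.32 and not called (adjusted p = 0.313).

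Upp2 and Tfrc were called with wider spreads. Upp2, a uridine phosphorylase of liver, had a DEHP effect that was called at 2 h (-1.28) and not at 8 h (0.60). Its signals were 9.70, 10.99 and 10.24 on DEHP 2 h arrays, against 11.59, 11.07 and 12.10 on corn oil 2 h arrays, and DEHP livers rose by 1.99 ± 0.29 to 8 h. Tfrc, the transferrin receptor that imports iron, had 10.81, 10.75 and 10.48 on DEHP 8 h arrays, against 9.74, 9.11 and 8.89 on corn oil 8 h arrays. Its 2 h groups overlapped. The changes were 1.88 ± 0.42 for Upp2 (limma, adjusted p = 0.0416) and 1.62 ± 0.36 for Tfrc (adjusted p = 0.0486). The Upp2 call held only without DEHP 2 h replicate 2, corn oil 2 h replicate 2, DEHP 8 h replicate 2 or corn oil 8 h replicate 3 (1.58 to 2.22 over 12 fits). The Tfrc call held only without DEHP 2 h replicate 1 or corn oil 8 h replicate 1 (1.36 to 1.98). Atp10d, a phospholipid flippase, changed by 0.95 ± 0.21 through DEHP livers, a call that held only without DEHP 8 h replicate 3 or corn oil 8 h replicate 1 (0.80 to 1.12).

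**Figure D2:**
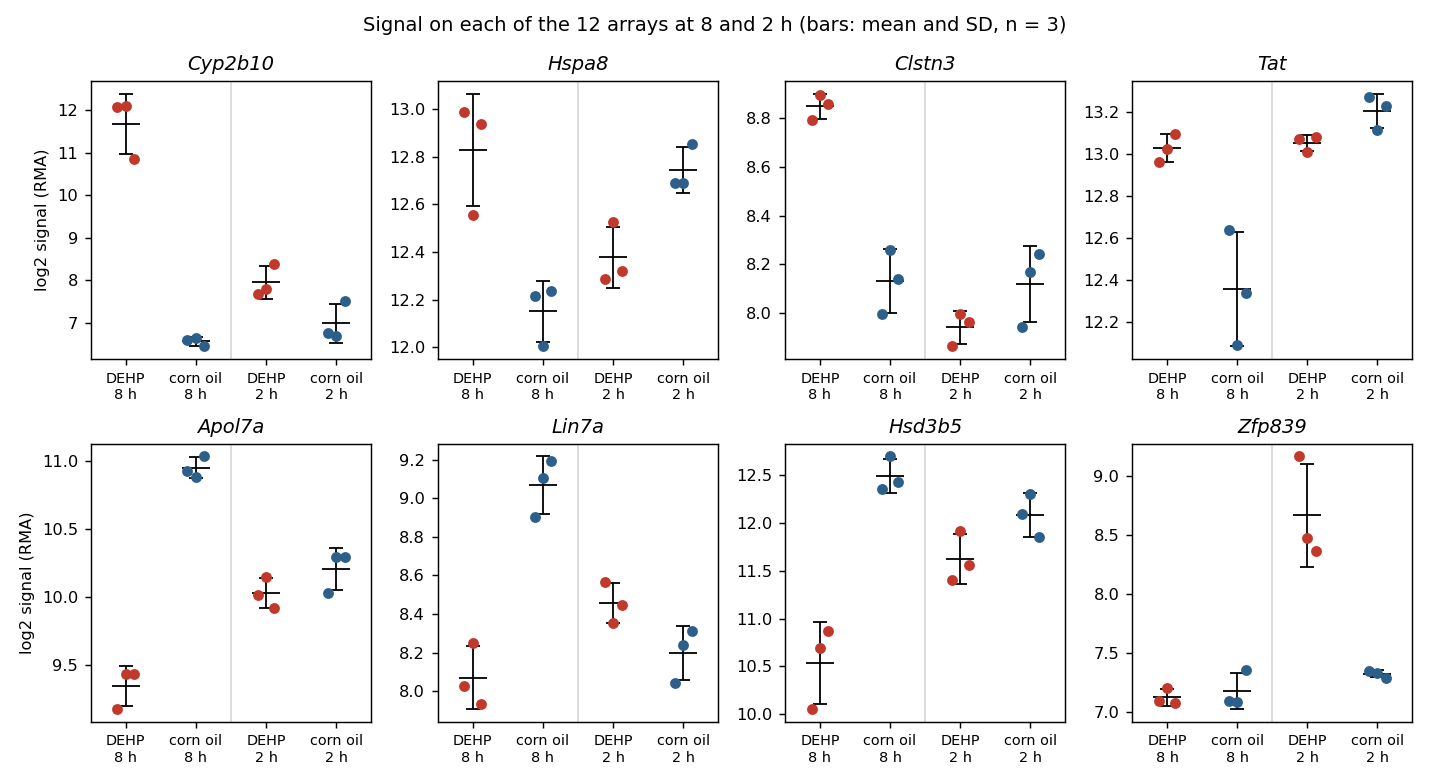
Log2 signal on each of the 12 arrays for 8 of the called genes, with DEHP left of corn oil and 8 h left of 2 h; points are arrays and bars the mean and SD of 3. DEHP livers at 8 h stand apart for Cyp2b10, Clstn3 and Hsd3b5, corn oil livers at 8 h for Tat and Lin7a, both 8 h groups for Apol7a, and DEHP livers at 2 h for Zfp839; for Hspa8, DEHP livers lie above corn oil livers at 8 h and below them at 2 h.

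Cytosolic chaperones of the heat shock response, which fold proteins and are switched on by HSF1, mostly had a lower mean at 8 h than at 2 h in corn oil livers (18 of 21 genes) and seldom in DEHP livers (3 of 21). Hspa8, the constitutive Hsp70, had 12.99, 12.56 and 12.94 on DEHP 8 h arrays, against a mean of 12.15 ± 0.13 (SD, n = 3) and a highest value of 12.24 on corn oil 8 h arrays. At 2 h it had 12.29, 12.53 and 12.32 on DEHP arrays, against 12.69, 12.69 and 12.85 on corn oil arrays, so the groups did not overlap at either time and changed places. From 2 to 8 h Hspa8 rose by 0.45 ± 0.10 in DEHP livers, while the shift in corn oil livers was -0.59 ± 0.10. The change was 1.04 ± 0.14 (limma, adjusted p = 0.00085) and was called in every fit without 1 array. Its other 3 probe sets gave 0.64 to 1.07. The probe set used is of a design that may also bind related transcripts, and with the mean of all 4 the change was 0.89 and not called (adjusted p = 0.0612).

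Stip1 and Hspa4l moved in corn oil livers alone. Stip1, the co-chaperone that joins Hsp70 to Hsp90, had 9.45, 9.29 and 9.32 on DEHP 8 h arrays, against 8.90, 8.91 and 8.93 on corn oil 8 h arrays. At 2 h it had 9.40, 9.40 and 9.03 on DEHP arrays, against 9.45, 9.68 and 9.61 on corn oil arrays. The corn oil 8 h livers were the low ones, below all 9 other arrays. The change of Stip1 was 0.74 ± 0.14 (limma, adjusted p = 0.0173), lost without DEHP 2 h replicate 3 (0.62) or DEHP 8 h replicate 1 (0.69). Without the 2 arrays highest in pancreas markers its adjusted p was 0.0537, and with the 12 arrays at 8 and 2 h alone 0.0696. Hspa4l, an Hsp110 relative, changed by 0.77 ± 0.17 (adjusted p = 0.041), a call that held only without corn oil 2 h replicate 3, DEHP 8 h replicate 2 or corn oil 8 h replicate 3 (0.65 to 0.88).

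Of 21 measured heat shock genes, 3 were called higher and none lower, 20 had a positive change and 15 had an unadjusted p under 0.05. Among all 18194 genes tested, 8842 had a positive change, and 548 were higher at that p. The median change of the heat shock genes was 0.49. It was made of a shift from 2 to 8 h of 0.19 in DEHP livers and -0.34 in corn oil livers. In 15 of the 21 the signal went up in DEHP livers and down in corn oil livers. As a mean over the list, relative to the 12 arrays, the DEHP 8 h arrays lay between 0.05 and 0.31 and the corn oil 8 h arrays between -0.28 and -0.15. The DEHP 2 h arrays lay between -0.19 and -0.04 and the corn oil 2 h arrays between -0.02 and 0.30. Hsph1, the inducible Hsp110, was not called (1.10 ± 0.30, adjusted p = 0.12). The list median was 0.51 without corn oil 8 h replicate 2, the array with the widest Actb difference, and 0.54 without the 2 arrays highest in pancreas markers, where of the 3 called genes Hspa8 alone was called. Stellate markers were likewise lower in DEHP than in corn oil livers at 2 h, and their part in this list and in the synthesis lists was not tested. Endoplasmic reticulum folding genes had a median of -0.23, with none of 25 called and 5 lower at an unadjusted p under 0.05, and mitochondrial chaperones a median of 0.02, with none of 12 called (3 higher and 1 lower at an unadjusted p under 0.05).

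In fatty acid and triglyceride synthesis, too, the called genes moved in corn oil livers. Lpin2, a phosphatidate phosphatase of triglyceride synthesis, had 11.91, 12.25 and 12.05 on DEHP 8 h arrays, against 10.63, 11.08 and 11.11 on corn oil 8 h arrays. All 6 of the 2 h arrays lay between 11.61 and 11.95, and the shift to 8 h was 0.30 ± 0.14 in DEHP livers and -0.74 ± 0.14 in corn oil livers. The change was 1.04 ± 0.19 (limma, adjusted p = 0.0129), a call lost without DEHP 2 h replicate 1 (0.96). It was also lost without the 2 arrays highest in pancreas markers (adjusted p = 0.0688) and with the mean of all its probe sets (adjusted p = 0.0717). Me1, malic enzyme, which supplies NADPH for synthesis, had 12.73, 12.46 and 12.95 on DEHP 8 h arrays, against 11.37, 11.82 and 12.16 on corn oil 8 h arrays. It had 11.49, 12.61 and 11.96 on DEHP 2 h arrays, against 12.97, 12.82 and 13.12 on corn oil 2 h arrays. Corn oil livers were thus above DEHP livers at 2 h and below them at 8 h, with a change of 1.88 ± 0.40 (adjusted p = 0.0365). This call held only without DEHP 2 h replicate 2, corn oil 2 h replicate 2, DEHP 8 h replicate 2 or corn oil 8 h replicate 3 (1.61 to 2.17).

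Of 26 genes of this list, 2 were called higher, none lower, and 11 were higher at an unadjusted p under 0.05. Among all 18194 genes tested, 548 were higher at that p. The median change of the list was 0.56, with median shifts of 0.09 in DEHP livers and -0.59 in corn oil livers. Fasn, fatty acid synthase, had 11.76, 11.32 and 11.96 on DEHP 8 h arrays, against 11.53, 11.46 and 11.91 on corn oil 8 h arrays. It had 10.90, 12.57 and 11.38 on DEHP 2 h arrays, against 12.87, 12.76 and 13.10 on corn oil 2 h arrays. The 3 DEHP 2 h arrays were widely spread, with an SD of 0.86, and the change was not called (1.34 ± 0.55, adjusted p = 0.378). The regulator Srebf1 changed by -0.08 ± 0.41. Cholesterol synthesis genes had a median of 0.40, with none of 18 called, 17 positive and 5 under an unadjusted p of 0.05; 17 of the 18 had a lower mean at 8 h than at 2 h in corn oil livers, and 13 in DEHP livers. Fdps, which makes farnesyl diphosphate, had the largest change among them (0.87 ± 0.23, adjusted p = 0.105).

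**Figure D3:**
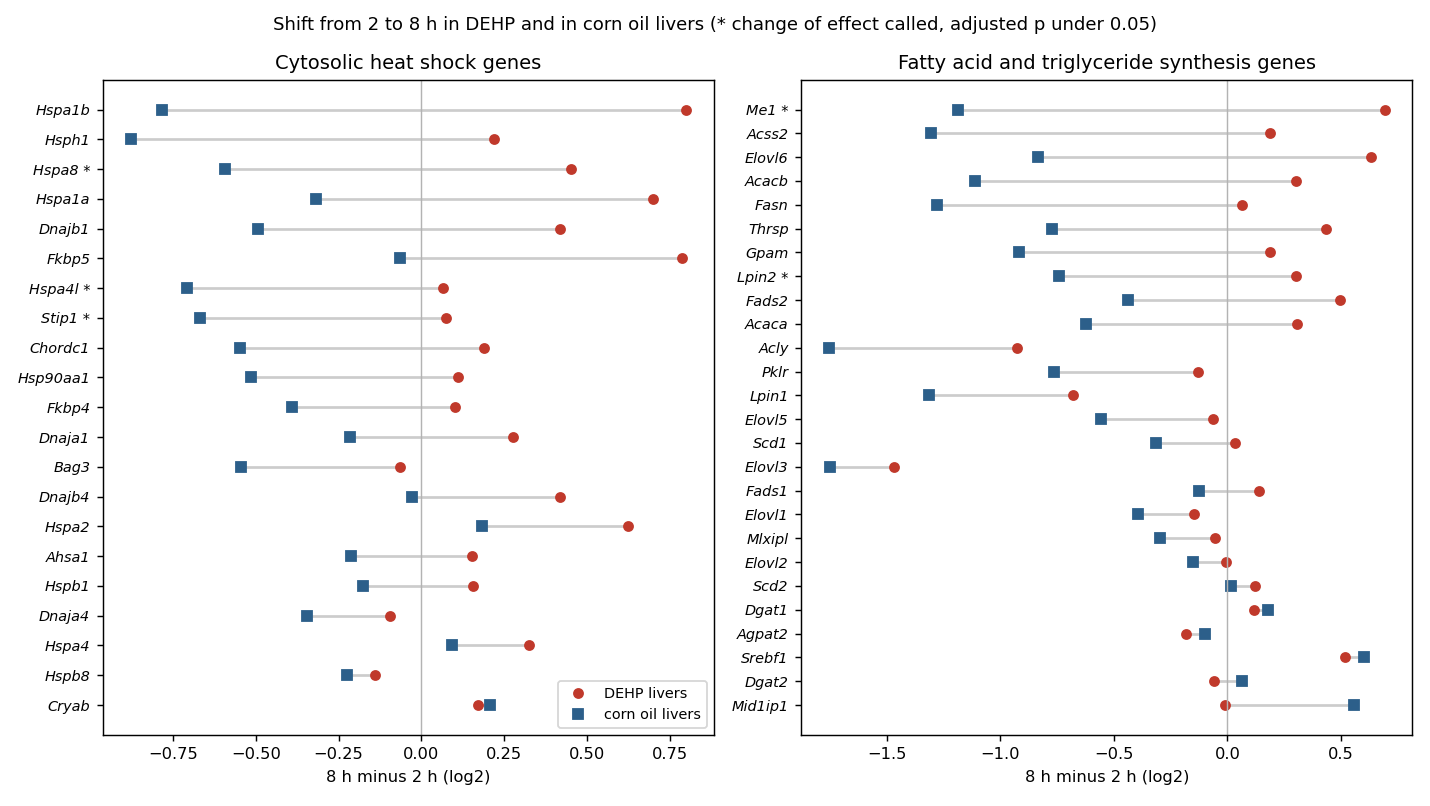
Shift from 2 to 8 h (log2, horizontal axis) in DEHP livers (circles) and corn oil livers (squares) for the measured genes of the heat shock list (left) and of the fatty acid and triglyceride synthesis list (right), 1 gene per line and ordered by the change of the DEHP effect. Corn oil livers lie left of DEHP livers for 20 of 21 heat shock genes and 21 of 26 synthesis genes; asterisks mark the 3 and 2 genes called.

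Tat, the aminotransferase that starts tyrosine breakdown and a classic glucocorticoid target, moved in corn oil livers alone. It had 12.96, 13.02 and 13.10 on DEHP 8 h arrays, against 12.64, 12.09 and 12.34 on corn oil 8 h arrays. At 2 h it had 13.07, 13.01 and 13.08 on DEHP arrays, against 13.27, 13.11 and 13.23 on corn oil arrays. The shift was -0.03 ± 0.10 in DEHP livers and -0.85 ± 0.10 in corn oil livers, and the change was 0.82 ± 0.15 (limma, adjusted p = 0.0104), called in every fit without 1 array. With the 12 arrays at 2 and 8 h fitted alone its adjusted p was 0.0642. Slc19a2, a thiamine transporter chosen for mention after its values were seen, also moved in corn oil livers. It had 10.25, 10.27 and 10.24 on DEHP 8 h arrays, against 10.02, 9.99 and 10.13 on corn oil 8 h arrays, and 10.32, 10.19 and 10.21 on DEHP 2 h arrays, against 10.70, 10.74 and 10.71 on corn oil 2 h arrays. Corn oil livers thus lay above all DEHP arrays at 2 h and below all of them at 8 h, with the wider gap at 2 h. The change of Slc19a2 was 0.68 ± 0.11 (limma, adjusted p = 0.00686). Of 34 genes of amino acid catabolism and the urea cycle only Tat was called, and the median change was 0.06. Tmem135, a peroxisomal membrane protein, changed by 1.04 ± 0.20 (limma, adjusted p = 0.0173). Its shift from 2 to 8 h was -0.57 ± 0.14 in corn oil livers and, without a call, 0.48 ± 0.14 in DEHP livers. The call of Tmem135 was lost without DEHP 2 h replicate 1 (1.01) or 3 (1.04), corn oil 2 h replicate 1 (1.03), DEHP 8 h replicate 1 (0.97), or corn oil 8 h replicate 1 (0.97) or 2 (0.97). With the mean of all its probe sets the change was 0.68 and not called (adjusted p = 0.0891). Mpzl2, an adhesion protein, changed by 1.02 ± 0.23, held only without DEHP 2 h replicate 3, DEHP 8 h replicate 2 or corn oil 8 h replicate 3 (0.78 to 1.19).

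Some of the genes with a lower effect at 8 h fell in DEHP livers between 2 and 8 h. Hsd3b5, a male-biased steroid reductase of mouse liver, had 10.05, 10.70 and 10.87 on DEHP 8 h arrays, against 12.36, 12.70 and 12.43 on corn oil 8 h arrays. It had 11.40, 11.92 and 11.55 on DEHP 2 h arrays, against 12.09, 12.31 and 11.85 on corn oil 2 h arrays. The 8 h groups lay more than 1 log2 unit apart and the 2 h groups overlapped. The change was -1.49 ± 0.25 (limma, adjusted p = 0.00569), called in every fit without 1 array. Of 13 male-biased genes, 2 were called lower, Hsd3b5 and Cyp2u1, and the median was -0.33. Cyp2u1, a fatty acid hydroxylase, moved instead in corn oil livers (-0.67 ± 0.15), a call that held only without corn oil 2 h replicate 3, DEHP 8 h replicate 2 or corn oil 8 h replicate 3 (-0.73 to -0.59). None of 11 female-biased genes was called, 2 were higher at an unadjusted p under 0.05, and the median was 0.10.

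Dexi, Ifi47 and Fgfr4 fell in DEHP livers alone and kept their calls in every fit without 1 array. Dexi, of unsettled function, had 7.68, 7.78 and 7.44 on DEHP 8 h arrays, against 8.84, 8.79 and 8.65 on corn oil 8 h arrays, and the 2 h groups overlapped. Fgfr4, the liver receptor for the gut hormone FGF15, had 7.97, 8.29 and 8.27 on DEHP 8 h arrays, against 9.11, 8.91 and 9.16 on corn oil 8 h arrays. Its 2 h arrays ranged from 8.95 to 8.99 for DEHP and from 8.63 to 9.07 for corn oil, so DEHP livers at 8 h stood alone. Ifi47, an interferon-induced GTPase, averaged 9.25 ± 0.11 in DEHP livers and 10.00 ± 0.07 in corn oil livers at 8 h (SD, n = 3 each). Its 2 h means were 10.15 ± 0.30 in DEHP livers and 9.79 ± 0.27 in corn oil livers. The changes were -1.13 ± 0.20 for Dexi (limma, adjusted p = 0.00849), -0.99 ± 0.17 for Fgfr4 and -1.11 ± 0.19 for Ifi47 (adjusted p = 0.00838 for both). With the 12 arrays at 2 and 8 h fitted alone, the adjusted p of Ifi47 was 0.0507. Of the 5 probe sets of Fgfr4, 3 gave changes from -0.17 to 0.07. None of 19 interferon response genes was called and none passed an unadjusted p of 0.05 in either direction; Ifi47 is not in that list.

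Saa4, Enho and Adh4 also fell in DEHP livers, less steadily, while corn oil livers rose without a call. The shifts from 2 to 8 h were -1.39 ± 0.26 in DEHP and 0.53 ± 0.26 in corn oil livers for Saa4. They were -0.88 ± 0.23 and 0.72 ± 0.23 for Enho, and -0.62 ± 0.15 and 0.46 ± 0.15 for Adh4. For Enho and Adh4 the DEHP arrays of the 2 times overlapped and the corn oil arrays did not. Saa4, a constitutive serum amyloid protein, had 10.96, 11.88 and 11.04 on DEHP 8 h arrays, against 12.93, 12.18 and 12.58 on corn oil 8 h arrays. It had 12.86, 12.06 and 13.13 on DEHP 2 h arrays, against 11.88, 11.87 and 12.34 on corn oil 2 h arrays, where the groups overlapped. The change was -1.92 ± 0.36 (limma, adjusted p = 0.0158), lost without DEHP 2 h replicate 1 (-1.84) or 3 (-1.70), corn oil 2 h replicate 1 (-1.85), or DEHP 8 h replicate 1 (-1.76) or 3 (-1.80). Without the 2 arrays highest in pancreas markers its adjusted p was 0.107, with the 12 arrays at 8 and 2 h alone 0.0719, and with the mean of both its probe sets 0.0524. Enho, which encodes the peptide adropin, changed by -1.60 ± 0.32 (adjusted p = 0.0238), held only without DEHP 2 h replicate 2 or 3, corn oil 2 h replicate 2, DEHP 8 h replicate 2 or corn oil 8 h replicate 3 (-1.89 to -1.32), and 2 of its 4 probe sets gave 0.05 and 0.17. With the mean of all 4 the change of Enho was -0.66 and not called (adjusted p = 0.0736). Adh4, an alcohol dehydrogenase that also handles retinol, changed by -1.08 ± 0.21. Its call was lost without DEHP 2 h replicate 1 (-0.96) or 3 (-1.01), corn oil 2 h replicate 1 (-1.06), or DEHP 8 h replicate 1 (-1.04) or 3 (-0.99).

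Saa4 was the only called member of 28 acute phase genes, which are made by hepatocytes in inflammation. Their median change was -0.47, with 26 negative and 12 under an unadjusted p of 0.05, all lower. Among all 18194 genes tested, 9352 had a negative change, and 1285 were lower at that p. The list mean relative to the 12 arrays was -0.19, -0.18 and 0.46 on the DEHP 8 h arrays in ascending order, against -0.18, -0.13 and 0.72 on the corn oil 8 h arrays. It was -0.21, 0.54 and 0.85 on the DEHP 2 h arrays, against -0.67, -0.65 and -0.37 on the corn oil 2 h arrays, so the groups stood apart at 2 h and not at 8 h. Without the 2 arrays highest in pancreas markers the median was -0.33. Neutrophil markers were likewise higher in DEHP than in corn oil livers at 2 h, and their part in this list was not tested. Saa2, an inducible serum amyloid, was not called (-3.43 ± 1.35, adjusted p = 0.346). Complement and coagulation genes had a median of -0.33, with none of 27 called, 26 negative and 15 lower at an unadjusted p under 0.05. Here it was the 8 h groups that stood apart, with list means from -0.21 to -0.09 on DEHP arrays and from 0.13 to 0.16 on corn oil arrays.

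Other genes had a DEHP effect at 2 h that was not called at 8 h. Zfp839, a zinc finger gene, had 9.17, 8.47 and 8.36 on DEHP 2 h arrays, while the other 9 arrays lay between 7.08 and 7.35. Its DEHP effect was -0.05 at 8 h and 1.35 at 2 h, a change of -1.40 ± 0.23 (limma, adjusted p = 0.00556) called in every fit without 1 array. Cdkn1a, the p21 inhibitor of the cell cycle and a p53 target, had 8.21, 8.08 and 8.44 on DEHP 8 h arrays, against 7.61, 7.77 and 7.92 on corn oil 8 h arrays. At 2 h it had 11.60, 11.09 and 11.27 on DEHP arrays, against 9.82, 9.56 and 9.14 on corn oil arrays. Cdkn1a therefore dropped in both groups, with shifts of -3.07 in DEHP livers and -1.74 in corn oil livers, and the 2 groups did not overlap at either time. Its change of -1.33 ± 0.30 (adjusted p = 0.0475) held only without DEHP 2 h replicate 2 or corn oil 2 h replicate 1 (-1.49 to -1.15). It was the only called gene of 18 p53 targets, whose median change was 0.05. Nid2, a basement membrane protein, changed by -0.94 ± 0.21, held only without DEHP 2 h replicate 2, corn oil 2 h replicate 3 or DEHP 8 h replicate 2 (-1.04 to -0.84).

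Tab2 and Hdac5 crossed over. Tab2, an adaptor of the kinase TAK1 in inflammatory signalling, had 8.63, 9.19 and 8.55 on DEHP 8 h arrays, against 9.33, 9.62 and 9.33 on corn oil 8 h arrays. It had 10.31, 10.07 and 10.19 on DEHP 2 h arrays, against 9.33, 9.75 and 9.58 on corn oil 2 h arrays. The change was -1.27 ± 0.22 (limma, adjusted p = 0.00838). Hdac5, a histone deacetylase named after its values were seen, was the only one of the 76 with a called effect at both times, -0.42 at 8 h and 0.49 at 2 h. It had 8.25, 8.12 and 8.34 on DEHP 8 h arrays, against 8.55, 8.71 and 8.71 on corn oil 8 h arrays, and 9.06, 8.91 and 8.94 on DEHP 2 h arrays, against 8.45, 8.73 and 8.26 on corn oil 2 h arrays. Both genes were low in DEHP livers at 8 h and high in them at 2 h, and both were called in every fit without 1 array.

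In a further set, corn oil livers rose between 2 and 8 h and DEHP livers did not. Lin7a, a scaffold protein of cell polarity, had 8.03, 8.25 and 7.93 on DEHP 8 h arrays, against 8.90, 9.10 and 9.20 on corn oil 8 h arrays. It had 8.57, 8.36 and 8.45 on DEHP 2 h arrays, against 8.04, 8.24 and 8.31 on corn oil 2 h arrays. The shift was -0.39 ± 0.11 in DEHP livers, which was not called, and 0.87 ± 0.11 in corn oil livers, and the change was -1.26 ± 0.16 (limma, adjusted p = 0.000371). Apol7a, an apolipoprotein L, moved in both groups, with 9.17, 9.43 and 9.43 on DEHP 8 h arrays, against 10.93, 10.88 and 11.03 on corn oil 8 h arrays. At 2 h Apol7a had 10.02, 10.14 and 9.92 on DEHP arrays, against 10.03, 10.29 and 10.29 on corn oil arrays, so overlapping groups at 2 h had parted by 8 h. Its change was -1.42 ± 0.17 (adjusted p = 0.000167). Gpr155, described in human cells as a lysosomal cholesterol sensor, and Mfhas1, a leucine-rich repeat protein, likewise moved down in DEHP livers and up in corn oil livers, with changes of -1.19 ± 0.14 and -1.21 ± 0.17. All 4 were called in every fit without 1 array.

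Genes that are known for their response to PPARα activators were mostly not called for a change. Pdk4 and Cyp4a14 had a large effect at both times. Pdk4, a kinase that blocks glucose oxidation, had 11.87, 11.92 and 11.26 on DEHP 8 h arrays, against 6.47, 5.12 and 5.54 on corn oil 8 h arrays. It had 12.15, 12.02 and 11.99 on DEHP 2 h arrays, against 7.41, 7.13 and 6.75 on corn oil 2 h arrays, and the change was 1.01 ± 0.39 (limma, adjusted p = 0.324). Cyp4a14, a fatty acid omega-hydroxylase, had an effect of 3.92 at 8 h and 4.44 at 2 h, with a change of -0.52 ± 0.56 (adjusted p = 0.862). Ehhadh of peroxisomal oxidation changed by 0.86 ± 0.29 (adjusted p = 0.236) and the thioesterase Acot1 by 0.18 ± 0.60 (adjusted p = 0.966). Fgf21 changed by -0.67, Cpt1a by -0.10 and Cd36 by 0.90, all without a call. None of 34 peroxisomal, 22 mitochondrial and 10 omega-hydroxylation genes was called. At an unadjusted p under 0.05 these counts were 8 higher and 3 lower, 4 higher, and 2 higher, and the medians were 0.14, 0.16 and 0.16. Acot3, a peroxisomal thioesterase, had the largest change among them (1.83 ± 0.49, adjusted p = 0.12).

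**Figure D4:**
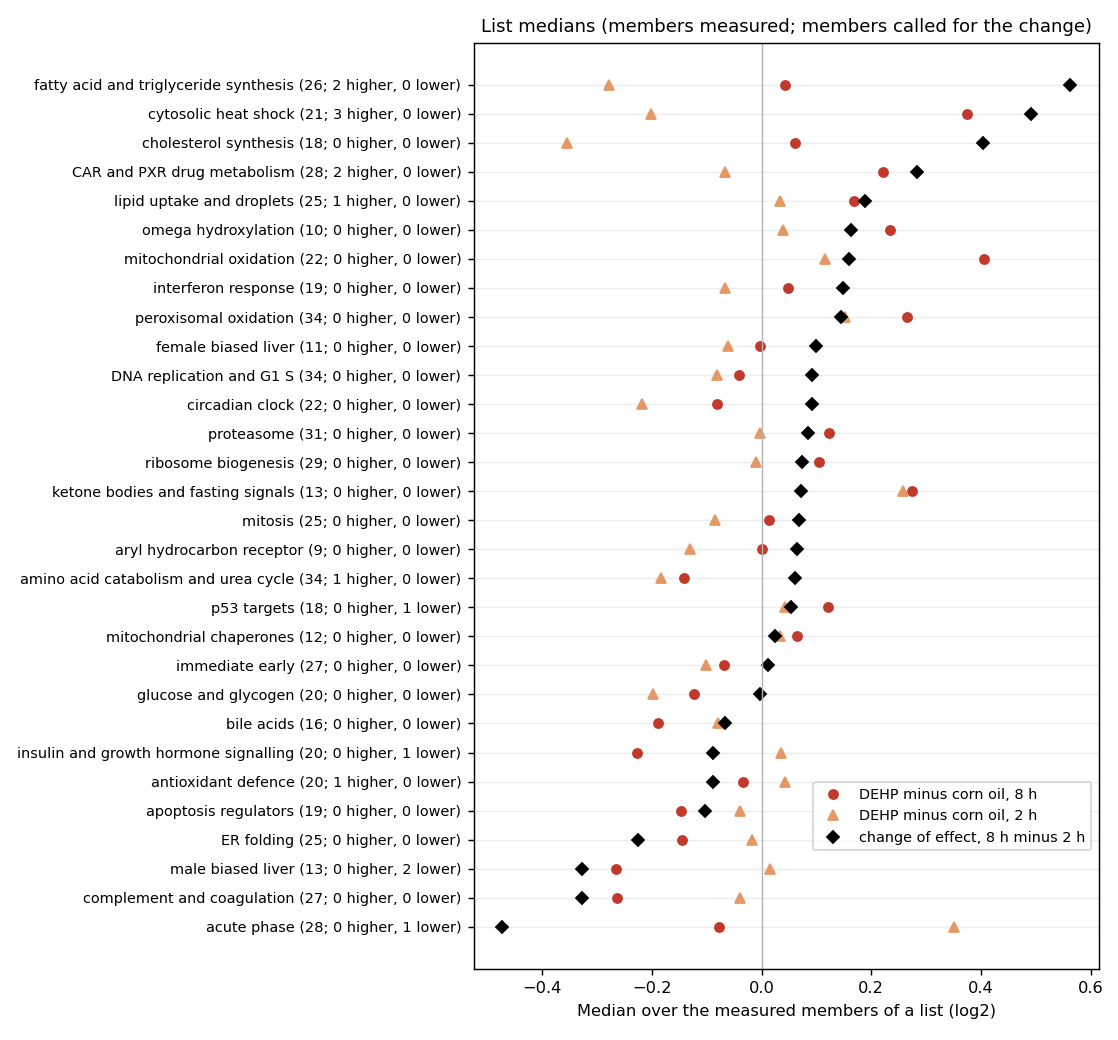
Median over the measured members of 30 gene lists of the DEHP effect at 8 h (circles), the DEHP effect at 2 h (triangles) and the change of the effect (diamonds), in log2 units; brackets give the members measured and called for the change. The fatty acid synthesis list has the highest median change, 0.56, and the acute phase list the lowest, -0.47, while the median of all genes was -0.006.

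The receptors themselves were not called: Ppara changed by -0.17 ± 0.30 (limma, adjusted p = 0.932), and Rxra, its partner, lay just outside the threshold at -0.57 ± 0.13 (adjusted p = 0.050002). The other probe sets of Rxra gave 0.01 and 0.13. Dbp, an output gene of the clock, shifted by 5.03 ± 0.57 in DEHP livers and 3.37 ± 0.57 in corn oil livers from 2 to 8 h. The change of its DEHP effect was not called (1.66 ± 0.81, adjusted p = 0.501). None of 22 clock genes was called (4 higher and 1 lower at an unadjusted p under 0.05). By a call between 2 and 8 h, however, 10 rose and 4 fell in corn oil livers. In DEHP livers 9 rose and 5 fell. Cyp7a1, which controls the first step from cholesterol to bile acids, changed by 1.05 ± 0.42 (adjusted p = 0.352). Ccnd1, cyclin D1, changed by 1.24 ± 0.30 (adjusted p = 0.0754), and the glycogen-targeting subunit gene Ppp1r3c by -1.47 ± 0.36 (adjusted p = 0.0764). The proliferation marker Mki67 changed by 0.09 ± 0.32.

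The effects of these genes at 8 h were mostly larger than those at 24 and 72 h, in livers that did not enter the comparison. Against a median DEHP effect of 0.81 at 8 h, the 26 genes with a higher effect had medians of 0.07 at 24 h and 0.04 at 72 h. The 50 genes with a lower effect had a median of -0.63 at 8 h, -0.09 at 24 h and -0.15 at 72 h. The sign of the 8 h effect recurred at 24 h for 51 of the 76 genes and at 72 h for 52, and for 66 genes at 24 h and 54 at 72 h the effect was under 50 percent of its 8 h size. Cyp2b10 had an effect of 5.13 at 8 h, 0.34 at 24 h and 1.47 at 72 h. These are descriptions with no test, since the genes were chosen partly by their 8 h arrays.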

How the data were processed

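The authors deposited log2 expression values made with RMA, per the submitters' processing notes; its version is not given in the sources used here. RMA corrects background, normalizes arrays to a common distribution and summarises the probes of a probe set, so levels of different probe sets are not comparable. Total RNA was labelled with biotin by Affymetrix's procedure, per the labels' protocols. Of 45101 probe sets, 34958 had 1 gene symbol in the platform annotation, 932 had several and 9211 were unnamed here, 51 of them array controls. The probe set with the highest mean over 24 arrays was kept for each of 18194 genes.

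A model of 8 group means was fitted to the 24 arrays with limma 3.58.1 in R 4.3.3 (16 residual degrees of freedom, moderated two-sided tests), with Benjamini-Hochberg adjustment over all genes and calls at an adjusted p under 0.05. The contrast was tested on simulated data first. The number of arrays, 3 per group, limits the precision. Groups that moved are the 4 simple contrasts of the same fit. Genes named are the 15 called genes with the largest change in each direction (passing over predicted and clone names such as those ending in Rik), up to 4 called members of each list, the top member of a list without a call, and a fixed set of liver genes; exceptions are marked. The members and lists were chosen with earlier results of these data known. Alternatives covered the replicate block, the arrays and probe sets used, variance settings, rescaling and RNA quality. Promoter windows are from a RefSeq table of GRCm38.p6.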

Additional observations from a re-analysis of the deposited data

Results flagged for a closer look

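The DEHP effect differed between 8 and 2 h, by the interaction test itself, for 26 genes with a higher effect at 8 h and 50 with a lower one. Hdac5, with a change of -0.91, was the gene among them whose effect was called at both times in opposite directions. Probe sets with several genes or no annotation lay outside the main measurement, and among these 10092, with 51 array controls left out, the change was called higher for 4 and lower for 2 (474 at an unadjusted p under 0.05).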

How the results depend on the processing

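No called gene changed sign under any alternative. Leaving out 1 array at a time gave 9 to 39 genes higher, 19 to 149 lower, 17 to 101 with moved DEHP livers and 13 to 78 with moved corn oil livers, against 26, 50, 45 and 40. In that order, counts that moved by more than 1.5 times were 6, 14, 15 and 10 at an adjusted p under 0.01; 13, 27, 25 and 13 with Actb 3' minus 5' as a covariate; 47, 137, 93 and 77 without both arrays that carry the number 14 in their titles; and 11, 25, 23 and 18 without the 2 arrays highest in pancreas markers. With the 12 arrays at 2 and 8 h alone, 23 genes were lower, 28 with moved DEHP livers and 21 with moved corn oil livers. With array weights these were 101, 84 and 65. The last choice on pancreas markers, and an 18S covariate (25, 45, 42 and 33), were added after seeing the data. The causes were not tested. With a replicate block the counts were 28, 49, 46 and 38, and 67 of the 76 genes were called; among 35 named genes Cdkn1a, Cyp2u1, Nid2 and Upp2 were not. Same-numbered arrays correlated between -0.18 and 0.31 in their deviations from group means. With so few arrays per group, these values cannot decide whether the replicate numbers pair the arrays. The first replicate of each group carries a lower number in its title than the later replicates. With first against later replicates as a block the counts were 30, 60, 55 and 45, and all 76 genes were called. Over single genes and all alternatives, 639 values lost their call and 22 gained one.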

Other observations

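Of the 76 called genes, 39 had more than 1 probe set. For 28 of these another probe set changed in the same direction at an unadjusted p under 0.05. For 7 (Dna2, Enho, Entpd5, Fgfr4, Lasp1, Nat8f1 and Srxn1) a further probe set had the opposite sign, none of them with an unadjusted p under 0.05. Dna2, Lasp1 and Nat8f1 are named after their values were seen.

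The 2 arrays whose titles share the number 14 correlated with r = 0.99 across probe sets, and the SD of their difference was 0.282, above the smallest SD between any 2 of the 12 arrays (0.199).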
